A study of Homo sapiens with 5 samples.

Results

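The 38 genes described here encode the enzymes and regulators that make, desaturate, elongate, activate, assemble and store fatty acids. They were chosen by name from the pathway, with earlier results of these data known. On the array, 37 of the 38 had a row with 1 annotated gene symbol, out of 18417 genes with such a row and 33297 rows in all, and the row with the highest mean over the 5 arrays stood for each gene. ACSL3, an acyl-CoA synthetase, had no such row and was not analysed here. The samples were D54 cells, an established human glioma cell line, and all 5 were seeded from trypsinised cells in DMEM/F12 medium and grown overnight before RNA was taken. In 3 of them TIP-1 was silenced, each with a different TIP-1 shRNA (shRNAs 1, 2 and 3, 1 array each), and the other 2 were independent clones with a control shRNA (controls 1 and 2, 1 array each). Because each TIP-1 shRNA had a single array, an effect of 1 shRNA and a feature of that culture or array cannot be told apart.

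Fatty acid synthesis starts from citrate exported by mitochondria. ATP citrate lyase and acetyl-CoA synthetase supply acetyl-CoA, acetyl-CoA carboxylase makes malonyl-CoA, and fatty acid synthase builds palmitate with NADPH. The transcription factor SREBP-1, made from SREBF1, is released from the endoplasmic reticulum when INSIG proteins let go of its escort SCAP. It drives most genes of synthesis, desaturation and elongation, and PNPLA3, a lipase-like protein of lipid droplets. Glioma cells are known for active fatty acid synthesis downstream of growth factor signalling.

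The values were log2 signals, 1 per transcript cluster. The silenced gene, TAX1BP3 (TIP-1, a small PDZ domain protein), was read on a row that also carries its read-through transcript with P2RX5, at 9.81, 9.61 and 9.55 with shRNAs 1, 2 and 3, against 12.05 and 12.10 in the controls. It fell by 2.42 on the log2 scale (limma adjusted p = 0.011) and was the single row called among 33297. Array medians were 7.95, 7.90 and 7.88 with TIP-1 shRNA and 7.96 and 7.98 in the controls, while upper quartiles were 9.79, 9.80 and 9.83 against 9.77 and 9.77. Thus bright rows tended to read higher in shRNA 3. Of 10 glial and glioma markers, VIM (13.93 with TIP-1 shRNA, 13.98 in controls), CD44 (13.80 and 13.76) and EGFR (11.13 and 11.26) read far above the array medians. GFAP (8.02 and 8.09), OLIG2 (7.30 and 7.44), S100B (6.28 and 6.26), SOX2 (7.16 and 7.12) and AQP4 (5.54 and 5.71) read near or below them, and the table holds no detection call. Markers of lipid-handling tissues were not higher with TIP-1 shRNA, with median log2 differences of -0.01 for 6 adipocyte and -0.02 for 6 hepatocyte genes. In shRNA 3 alone, 8 of the 10 glial and glioma markers and 5 of the 6 adipocyte markers lay below both controls, against 41.9% of all genes, with medians of -0.12 and -0.17. Of 6 fibroblast markers 4 lay below both controls there, with a median of -0.09, while LUM was 0.71 above the control mean. The part of these shifts in the results below was not tested.

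Promoter windows of RefSeq genes (GRCh38.p14, 250 bases before to 50 after each start) are shown for SCD, FADS1 and FADS2, the desaturases whose values are compared below as SREBP1-type genes, and for ELOVL7, chosen after its values were seen because it stood apart in shRNA 3. Capitals mark CCAAT, the box bound by NF-Y, a partner of SREBP, read on either strand. The SCD window (chr10:100346983-100347282, plus strand) held 2 matches. FADS1 (chr11:61816954-61817253, minus strand) held none. FADS2 has 2 windows, and the one printed (chr11:61816154-61816453, plus strand) was picked for holding the most matches. It held 1, at 5 bases after the start, and the other window held none. ELOVL7 (chr5:60844220-60844519, minus strand) held none and was 80.7% G and C.
SCD: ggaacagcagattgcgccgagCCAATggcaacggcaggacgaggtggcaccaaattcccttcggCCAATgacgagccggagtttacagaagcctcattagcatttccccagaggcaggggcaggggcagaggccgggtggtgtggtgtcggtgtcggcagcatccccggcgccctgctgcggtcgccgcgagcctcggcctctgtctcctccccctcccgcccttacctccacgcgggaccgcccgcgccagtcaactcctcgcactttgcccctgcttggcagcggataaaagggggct
FADS1: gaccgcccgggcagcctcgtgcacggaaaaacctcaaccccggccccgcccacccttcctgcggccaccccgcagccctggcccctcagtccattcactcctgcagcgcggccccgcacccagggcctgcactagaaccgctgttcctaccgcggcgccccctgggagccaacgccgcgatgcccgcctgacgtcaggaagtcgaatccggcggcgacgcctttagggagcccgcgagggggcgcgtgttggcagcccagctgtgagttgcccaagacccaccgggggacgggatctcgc
FADS2: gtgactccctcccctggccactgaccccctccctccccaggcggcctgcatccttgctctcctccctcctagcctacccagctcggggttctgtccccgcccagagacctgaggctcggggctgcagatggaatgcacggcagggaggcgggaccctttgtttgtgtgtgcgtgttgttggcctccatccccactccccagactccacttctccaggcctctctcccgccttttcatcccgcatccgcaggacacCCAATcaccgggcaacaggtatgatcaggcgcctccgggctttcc
ELOVL7: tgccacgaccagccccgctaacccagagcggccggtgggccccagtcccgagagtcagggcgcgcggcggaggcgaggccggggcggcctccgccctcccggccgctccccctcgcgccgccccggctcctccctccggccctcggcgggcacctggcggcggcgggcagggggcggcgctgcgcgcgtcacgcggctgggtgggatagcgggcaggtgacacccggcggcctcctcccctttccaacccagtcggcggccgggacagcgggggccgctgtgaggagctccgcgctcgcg

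Windows were found for 34 of the 38 genes, though not for FASN, DGAT1, DGAT2 and PNPLA3. The sterol regulatory element was searched as TCACNCCAC, the E-box as CACGTG and the NF-Y box as CCAAT, on both strands, and no match of one overlapped another in the windows shown. The first was present in a window of ACSL1, ACSL6 and PNPLA2, 3 of the 34 genes, against 1.39% of all 27305 genes with a window. None of the 13 SREBP1-type genes with a window held it, which says only that these letters are not in these windows. CACGTG was present for 4 of the 34 genes (8.77% of all genes) and CCAAT for 17 of the 34 (39.7%), among them 8 of the 13 SREBP1-type genes. A gene with several windows counted once, so genes with many starts had more chances of a match.

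Averaged over the 3 TIP-1 shRNAs, about as many fatty acid genes read higher as lower than in the controls. Of the 37, 18 had a higher and 19 a lower mean with TIP-1 shRNA than in the controls, against 8758 and 9659 of 18417 genes. The median log2 difference was -0.01, the same to 2 decimals as over all genes (-0.01). None passed the limma test at an adjusted p of 0.05, against 0.003% of all rows. At an unadjusted p under 0.05, 1 member passed (ACSL4, lower), against 6.02% of all genes. All 3 shRNA arrays lay above both controls for 4 members (TECR, SREBF1, INSIG2 and CPT1A), or 10.8%, against 12.5% of all genes. They lay below both for 5 (ME1, ELOVL3, MLXIPL, ACSL1 and ACSL4), or 13.5%, against 14.1%. Both shares were near those of all genes. With each array centred on its median they were 6 and 2 members. These counts have few controls behind them: without control 1 they were 10 above and 10 below, and without control 2, 7 and 8. Without shRNA 1 there were 8 above, and without shRNA 3 there were 7 above and 17 below.

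Taken singly, the shRNAs differed. Among the 37 genes, shRNA 3 gave the highest of the 5 values for 19 (51.4%), against 27.1% of all genes, and lay above both other TIP-1 shRNAs for 27 (73.0%), against 37.8%. In shRNAs 1 and 2 together, 17 genes (45.9%) lay below both controls, against 22.3% of all genes. For 9 genes (24.3%) shRNAs 1 and 2 both lay below and shRNA 3 above both controls, against 5.42% of all genes. Those 9 were ACSS2, ACACA, SCD5, FADS2, ACSL5, LPIN1, LPIN2, DGAT2 and PNPLA3. Some counted by a very small margin. SCD5 read 8.929 in shRNA 1 against 8.931 in control 1, and LPIN2 read 9.078 in shRNA 3 against 9.068 in control 2. Because shRNA 3 read higher on bright rows, the shares were also taken among the brighter rows only. There shRNA 3 was highest for 16 of 29 members, against 34.7% of 11160 genes, and 8 members were split in this way, against 7.07%. After quantile normalization it was highest for 18 of the 37 against 27.7% of genes, and 8 were split against 5.37%. These are descriptions of 5 arrays and carry no test, and in such bulk samples fewer cells of a type and less RNA per cell cannot be told apart.

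**Figure D1:**
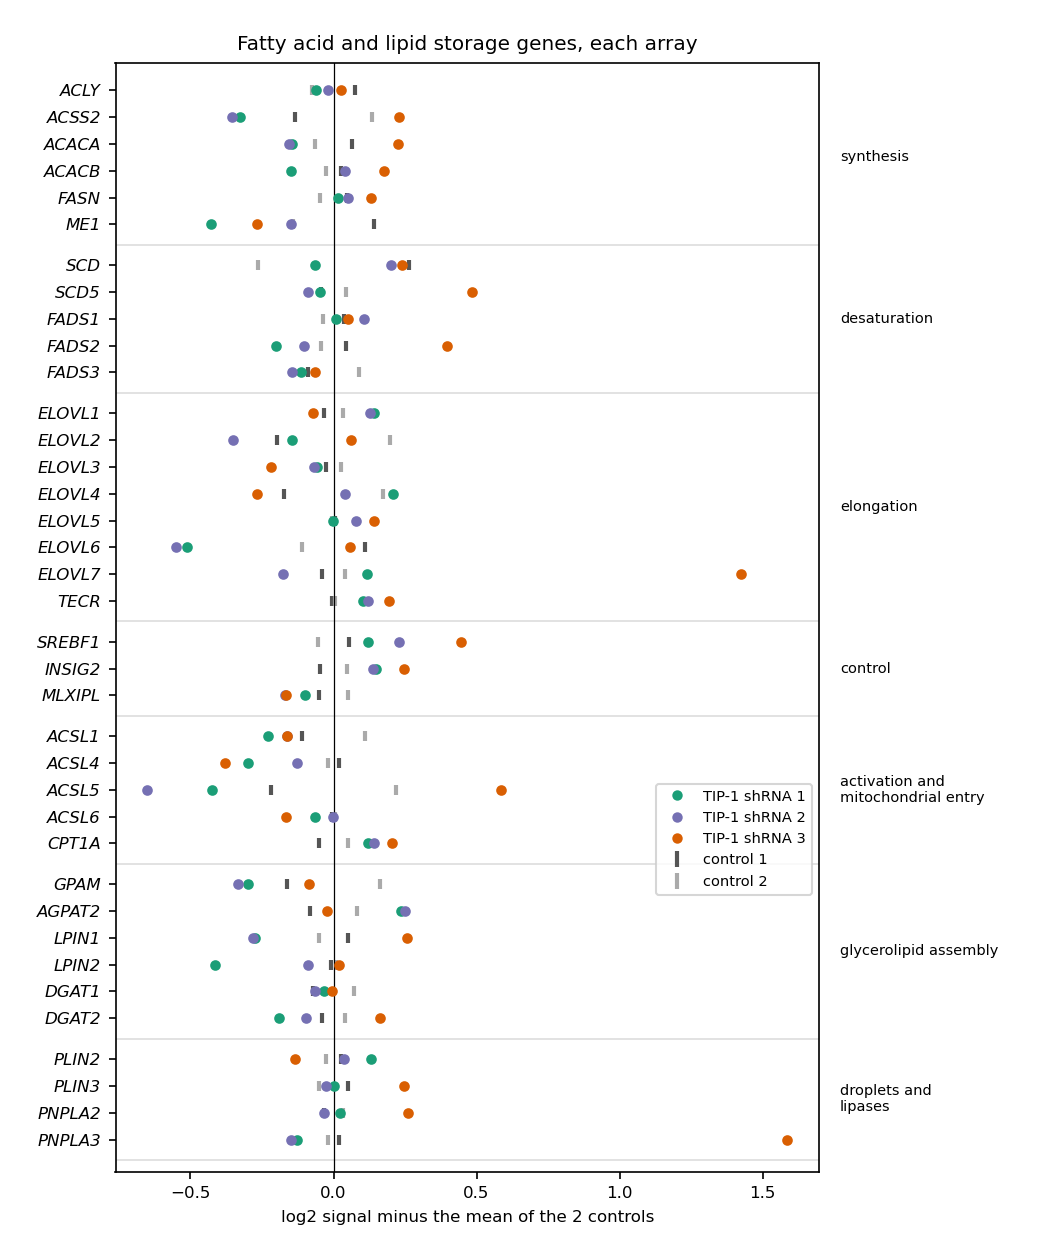
Log2 signal of each of the 37 genes in each array, minus the mean of the 2 controls (horizontal axis), with genes grouped by role down the page. Dots are the 3 TIP-1 shRNA arrays and vertical ticks the 2 controls. PNPLA3 (1.59) and ELOVL7 (1.42) in shRNA 3 lie farthest from the controls, followed by ACSL5 and ELOVL6.

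The 15 SREBP1-type genes (ACLY, ACSS2, ACACA, ACACB, FASN, ME1, SCD, FADS1, FADS2, ELOVL5, ELOVL6, PNPLA3, LPIN1, GPAM and SREBF1) showed the same order of shRNAs. Set against the control mean, their median log2 differences with shRNAs 1, 2 and 3 were -0.15, -0.10 and 0.18, against 0.00, -0.01 and -0.02 over all genes. shRNA 3 was the highest array for 9 of the 15 (60.0%), against the 27.1% of all genes given above, and exceeded both other TIP-1 shRNAs for 13 (86.7%, against 37.8%). In shRNAs 1 and 2, 8 of the 15 (53.3%) lay below both controls, against 22.3% of all genes. The 9 genes with shRNA 3 on top were ACSS2, ACACA, ACACB, FASN, FADS2, ELOVL5, PNPLA3, LPIN1 and SREBF1. SCD, ACLY, FADS1, ELOVL6 and GPAM had shRNA 3 second, behind a control or shRNA 2, and ME1 had it second lowest. Among bright rows shRNA 3 was highest for 7 of 13, against 34.7% of genes there. After median centring it was highest for 12 of 15, against 37.4% of all genes.

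**Figure D2:**
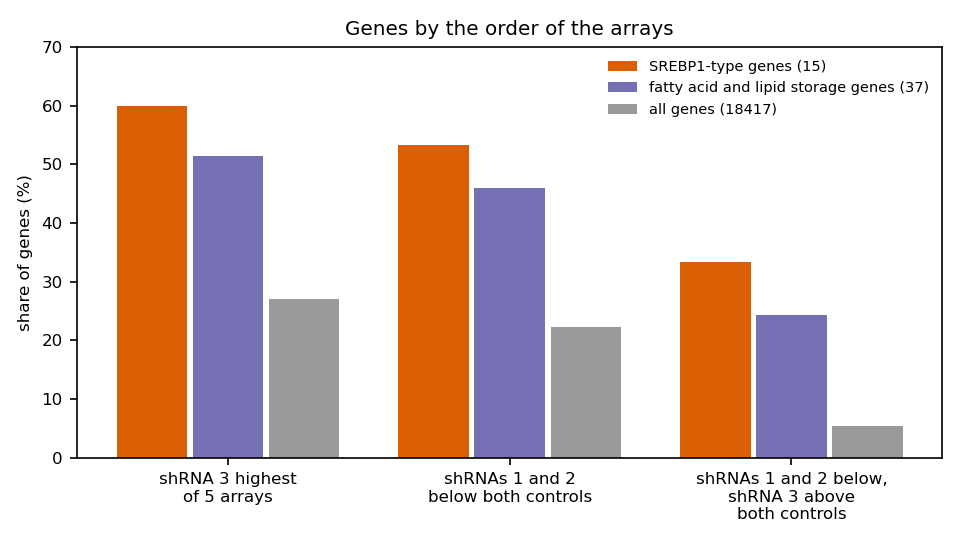
Share of genes (vertical axis, percent) by the order of the arrays, for the 15 SREBP1-type genes, all 37 fatty acid and lipid storage genes and all 18417 genes. From left to right the shares of the 3 sets are 60.0%, 51.4% and 27.1% for shRNA 3 highest, 53.3%, 45.9% and 22.3% for shRNAs 1 and 2 below both controls, and 33.3%, 24.3% and 5.42% for the split of shRNAs 1 and 2 from shRNA 3.

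PNPLA3 had the widest difference of any member in a single array, though ELOVL7 had the wider mean difference over the 3 shRNAs. It read 7.34, 7.31 and 9.05 with shRNAs 1, 2 and 3, against 7.48 and 7.44 in the controls. The shRNA 3 array stood alone above the rest, and shRNAs 1 and 2 lay just below both controls. In shRNA 3 it was 3.00-fold above the control mean (log2 difference 1.59, 95% interval 1.25 to 1.92), the 23rd highest difference among 18417 genes in that array. It did not pass the limma test of that array against both controls (adjusted p = 0.228), in which the lone array is assumed to vary like the controls. Its adjusted p ranged from 0.178 to 0.239 over the alternatives that give one, and the difference from 1.57 to 1.68. Against shRNA 1 the shRNA 3 array was higher by 1.71 (1.33 to 2.10, adjusted p = 0.330) and against shRNA 2 by 1.73 (1.35 to 2.12, adjusted p = 0.273). Averaged over the 3 shRNAs the difference was 0.44 (SE 0.52, limma adjusted p = 0.840), but -0.14 without shRNA 3.

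ELOVL7, an elongase of saturated and polyunsaturated long-chain acyl-CoAs, was also high in shRNA 3 alone. It read 6.89, 6.60 and 8.20 with shRNAs 1, 2 and 3, against 6.73 and 6.81 in the controls. Here shRNA 1 lay just above both controls and shRNA 2 below them, and the other 4 arrays lay between 6.60 and 6.89. Its log2 difference in shRNA 3 was 1.42 (1.08 to 1.77), a 2.68-fold higher signal and the 33rd highest among all genes (limma adjusted p = 0.288, and 0.198 to 0.276 over the alternatives). The shRNA 3 array exceeded shRNA 1 by 1.31 (adjusted p = 0.330) and shRNA 2 by 1.60 (adjusted p = 0.320). Over the 3 shRNAs the difference was 0.45 (SE 0.45, adjusted p = 0.806), but -0.030 without shRNA 3. PNPLA3 and ELOVL7 were both dim rows in the other 4 arrays, where a change on the log scale can be understated.

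Tests of single shRNAs called nothing on the whole array. In the limma fit of each shRNA against both controls, 0% of all 33297 rows passed for shRNA 1, 0% for shRNA 2 and 0% for shRNA 3, and so no member did. The silenced TAX1BP3 row did not pass there either (adjusted p = 0.302, 0.242 and 0.228), which limits what these fits can call. At an unadjusted p under 0.05, 2, 2 and 6 of the 37 members passed for shRNAs 1, 2 and 3, against 2.86%, 4.34% and 10.5% of all genes, so that more genes passed in shRNA 3 over the whole array too. The 3 contrasts between shRNAs also called 0% of rows each, for shRNA 2 minus 1, 3 minus 1 and 3 minus 2. By size alone, no member in shRNA 1 or shRNA 2 lay at least 0.5 log2 units above the control mean and above both controls, against 0.809% and 0.972% of all genes. Those at least 0.5 below were ELOVL6 in shRNA 1 (1 of 37, against 1.18%) and ELOVL6 and ACSL5 in shRNA 2 (2 of 37, against 1.61%). In shRNA 3, 3 members were at least 0.5 above (PNPLA3, ELOVL7 and ACSL5, 8.11% against 3.64%) and 0 were as far below (against 1.52%). With median centring the counts in shRNAs 1, 2 and 3 were 0, 1 and 5, and without control 2 they were 2 in shRNA 1 and 1 in shRNA 2.

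**Figure D3:**
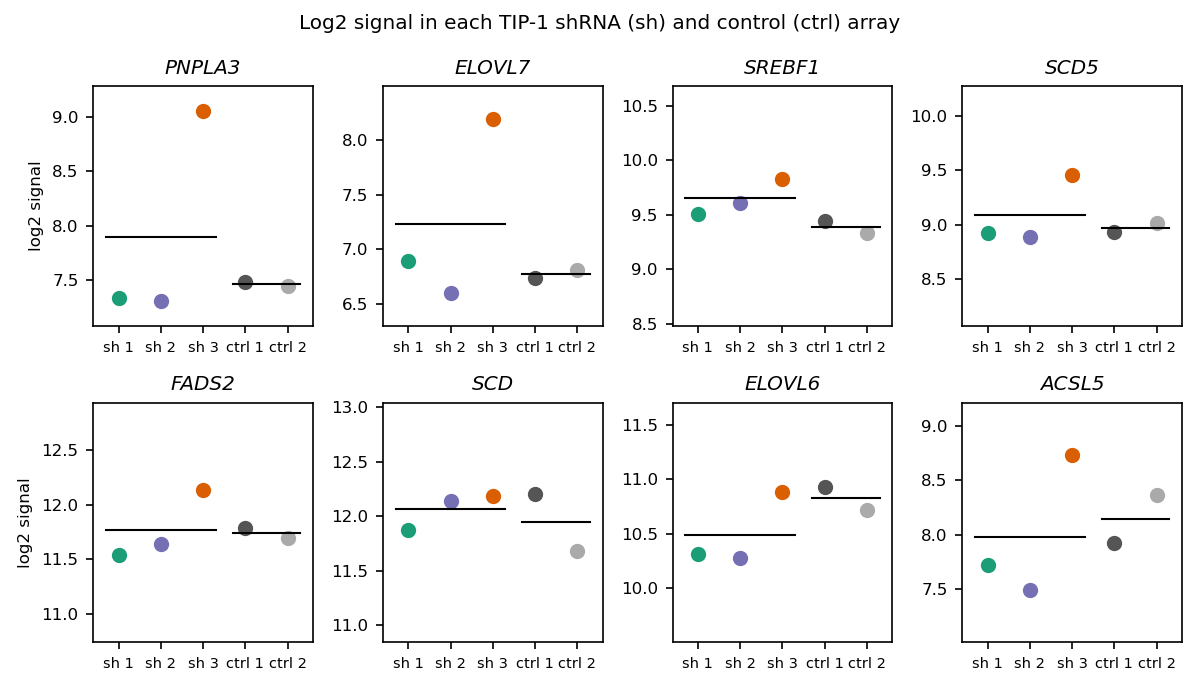
Log2 signal (vertical axis, each panel spanning the same number of log2 units) of 8 genes in the 3 TIP-1 shRNA arrays (sh) and the 2 control arrays (ctrl). Dots are arrays and lines are group means. shRNA 3 stands above the other 4 arrays for PNPLA3, ELOVL7, SREBF1, SCD5, FADS2 and ACSL5, and lies between the controls for SCD and ELOVL6.

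Among the regulators, SREBF1 was the member with all TIP-1 shRNA arrays above both controls and the widest mean difference. It read 9.50, 9.61 and 9.83 with shRNAs 1, 2 and 3, against 9.44 and 9.33 in the controls. The groups did not overlap, and shRNA 3 was highest. The mean difference was 0.26 (1.20-fold, SE 0.12, 95% interval -0.03 to 0.55, limma adjusted p = 0.707) and 0.17 without shRNA 3, and in shRNA 3 alone it was 0.45 (0.09 to 0.80, adjusted p = 0.419). INSIG2, which holds SCAP in the endoplasmic reticulum, read 8.21, 8.20 and 8.30 against 8.01 and 8.10. Its groups did not overlap either, with a difference of 0.18 (SE 0.09, adjusted p = 0.711). MLXIPL, which encodes the glucose-responsive factor ChREBP, lay below both controls in all 3 shRNAs with a difference of -0.15. None of the 3 passed the test.

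The desaturases differed from one another in the order of the arrays, and none passed the test. SCD, which places the double bond of oleate, read 11.88, 12.14 and 12.18 with shRNAs 1, 2 and 3, against 12.21 and 11.68 in the controls. All shRNA values lay between the controls, which themselves lay 0.53 apart, and the difference was 0.12 (SE 0.18, limma adjusted p = 0.867) or -0.14 without control 2. SCD5, its brain-enriched relative, read 8.93, 8.89 and 9.46 against 8.93 and 9.02, so that shRNA 3 alone was high. In shRNA 3 its difference was 0.49 (0.14 to 0.83, adjusted p = 0.416), and it exceeded shRNA 1 by 0.53 and shRNA 2 by 0.57 (adjusted p = 0.518 and 0.536).

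FADS2, the first enzyme of polyunsaturated fatty acid synthesis, read 11.54, 11.64 and 12.14 with shRNAs 1, 2 and 3, against 11.79 and 11.70 in the controls. Here shRNAs 1 and 2 lay below both controls and shRNA 3 above both. The difference was 0.40 in shRNA 3 (0.05 to 0.74, limma adjusted p = 0.423), -0.20 in shRNA 1 and -0.10 in shRNA 2, with a mean of 0.03 that turned to -0.15 without shRNA 3 and to -0.01 without control 2. Its neighbour FADS1, the delta-5 desaturase, read 12.34, 12.44 and 12.38 against 12.37 and 12.30, with the arrays of both groups interleaved. FADS3, a desaturase of sphingoid bases, read 11.77, 11.74 and 11.82 against 11.80 and 11.97, also overlapping. The mean differences of FADS1 and FADS3 were 0.06 (-0.15 to 0.26) and -0.11 (-0.33 to 0.11), and leaving out single controls moved them to between 0.019 and 0.092 for FADS1 and between -0.20 and -0.021 for FADS3. Of the genes named for desaturation, SCD5 and FADS2 were therefore high in the same array as PNPLA3, while SCD, FADS1 and FADS3 were within the range of the controls there or, for FADS1, just above it.

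Among the synthesis enzymes no mean difference reached 0.5 in size. FASN, which builds palmitate, read 10.34, 10.38 and 10.46 with shRNAs 1, 2 and 3, against 10.38 and 10.28 in the controls. The groups overlapped, and the mean difference was 0.07 (95% interval -0.14 to 0.28, limma adjusted p = 0.854), or 0.11 without control 1, 0.019 without control 2 and 0.034 without shRNA 3. ACSS2, which activates acetate, read 9.28, 9.26 and 9.84 against 9.48 and 9.75, with shRNAs 1 and 2 below and shRNA 3 above both controls. Relative to the control mean it differed by -0.33, -0.35 and 0.23. ACACA, the cytosolic acetyl-CoA carboxylase, had the same order, at -0.15, -0.16 and 0.23. ACACB, its mitochondrial relative, differed by -0.15, 0.04 and 0.18, and ACLY by -0.06, -0.02 and 0.03. By mean, 2 of the 6 synthesis genes were higher with TIP-1 shRNA and 4 lower, against 8758 and 9659 of 18417 genes, with ACSS2 at -0.15. ME1, the NADPH-producing malic enzyme, was the only one of them below both controls in every shRNA. It read 10.69, 10.97 and 10.85 against 11.26 and 10.97, under control 2 by less than 0.01 in shRNA 2. Its mean difference was -0.28 (SE 0.13, adjusted p = 0.707), with -0.14 without control 1 and -0.42 without control 2.

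Among the elongases, ELOVL6, which extends palmitate to stearate, differed between the shRNAs. It read 10.31, 10.27 and 10.88 with shRNAs 1, 2 and 3, against 10.93 and 10.72 in the controls. shRNAs 1 and 2 lay below both controls and shRNA 3 between them. The differences were -0.51 in shRNA 1 (-0.92 to -0.10), -0.55 in shRNA 2 (-0.96 to -0.14) and 0.06 in shRNA 3, and none passed (limma adjusted p = 1.0, 0.727 and 0.889). The mean was -0.34 with all arrays and -0.53 without shRNA 3. ELOVL5, which elongates polyunsaturated chains, and TECR, the reductase shared by all elongation cycles, differed by at most 0.14 and 0.19 from the control mean in any shRNA. A second TECR row read 13.13, 13.14 and 13.25 against 13.07 and 13.03, in the same order of groups. ELOVL1, ELOVL2, ELOVL3 and ELOVL4 had mean differences of 0.07, -0.14, -0.12 and -0.01.

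Of the acyl-CoA synthetases, which activate fatty acids for every later step, ACSL4 and ACSL5 stood out. ACSL4, which prefers arachidonate, read 10.05, 10.22 and 9.97 with shRNAs 1, 2 and 3, against 10.37 and 10.33 in the controls. All shRNA arrays lay below both controls, by 0.27 on average (95% interval -0.52 to -0.02, limma unadjusted p = 0.039, adjusted p = 0.707). ACSL5 read 7.72, 7.50 and 8.73 against 7.93 and 8.37, with shRNAs 1 and 2 below and shRNA 3 above both controls. Its differences were -0.43, -0.65 and 0.59, and shRNA 3 exceeded shRNA 1 by 1.01 (0.33 to 1.69, adjusted p = 0.475) and shRNA 2 by 1.24 (0.56 to 1.91, adjusted p = 0.468). The controls lay 0.44 apart for this gene, and the mean difference of -0.16 became 0.06 without control 2, 0.08 without shRNA 2 and -0.54 without shRNA 3. ACSL1 was lower than both controls in all shRNAs (mean difference -0.18) and ACSL6 overlapped them (-0.08). CPT1A, which carries acyl groups into mitochondrial oxidation, lay above both controls in all shRNAs (0.16, SE 0.08, adjusted p = 0.713).

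Of the 6 enzymes of glycerolipid assembly, 5 had a lower mean with TIP-1 shRNA, against 9659 of 18417 genes. For LPIN1, LPIN2 and DGAT2 (50%, against 5.42% of all genes) shRNAs 1 and 2 lay below and shRNA 3 above both controls. LPIN1, a phosphatidate phosphatase, differed by -0.28, -0.28 and 0.26 in shRNAs 1, 2 and 3, and shRNA 3 exceeded shRNA 1 by 0.53 (0.13 to 0.94, limma adjusted p = 0.521). LPIN2, its relative, differed by -0.41, -0.09 and 0.02, and DGAT2, which makes triacylglycerol, by -0.19, -0.10 and 0.16. GPAM, the mitochondrial enzyme of the first step, lay below both controls in shRNAs 1 and 2 (-0.30 and -0.33) and between them in shRNA 3 (-0.08). AGPAT2 differed in the other direction, by 0.24, 0.25 and -0.02. DGAT1, read identically on a second row, differed by -0.03 and -0.06 in shRNAs 1 and 2. On the droplet itself, the coat protein PLIN3 and the triacylglycerol lipase PNPLA2 differed by 0.25 and 0.26 in shRNA 3 and by at most 0.03 in size in shRNAs 1 and 2. PLIN2, the coat protein that usually follows droplet content, differed by 0.13, 0.04 and -0.13. Its row was dim, at 6.86, 6.76 and 6.59 with shRNAs 1, 2 and 3 against 6.75 and 6.70 in the controls. These values lay below every array median, so a small change of PLIN2 could not be judged.

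Other genes of the pathway were taken from lists written from textbook knowledge, also with earlier results of these data known. Of 16 fatty acid oxidation genes, 14 had a higher and 2 a lower mean with TIP-1 shRNA, against 8758 and 9659 of 18417 genes. For 13 of the 16 (81.2%) shRNA 3 was the highest array, against 27.1% of all genes. With shRNAs 1, 2 and 3 their median differences were 0.06, 0.07 and 0.36. All 3 shRNAs lay above both controls for 6 of the 16 (37.5%, against 12.5% of all genes) and below for 1 (6.25%, against 14.1%). None passed over all rows, and 3 (18.8%, against 6.02%) had an unadjusted limma p under 0.05. These were the thiolase ACAA2, at 9.03, 9.06 and 9.12 with shRNAs 1, 2 and 3 against 8.68 and 8.64 in the controls, the brain-type carnitine palmitoyltransferase CPT1C (9.30, 9.32 and 9.56 against 9.03 and 8.96) and the carnitine carrier SLC25A20 (8.96, 9.17 and 9.17 against 8.81 and 8.67). Their mean differences were 0.41, 0.40 and 0.36, each at an adjusted p of 0.707.

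Of 14 sterol genes measured, 8 (57.1%, against 12.5% of all genes) lay above both controls in all 3 shRNAs and 0 below (against 14.1%). Their medians were 0.13, 0.15 and 0.23 in shRNAs 1, 2 and 3, so shRNAs 1 and 2 were not low there as in the SREBP1-type genes. The highest array was nonetheless shRNA 3 for 8 of the 14 (57.1%), against 27.1% of all genes and 60.0% of the SREBP1-type genes. For none of the 14 were shRNAs 1 and 2 both below the controls, against 22.3% of all genes. An unadjusted limma p under 0.05 was found for 3 of the 14 (21.4%, against 6.02% of all genes). These were MSMO1, MVK and LSS, with mean differences of 0.46, 0.21 and 0.23, each at an adjusted p of 0.707. HMGCS1 was 0.68 above the control mean in shRNA 3. Among 13 regulators, INSIG1, the sterol-induced partner of INSIG2, read 10.51, 10.73 and 11.04 against 10.31 and 10.00 (difference 0.60, SE 0.18, limma adjusted p = 0.707), and SREBF2 differed by 0.24. PPARG, a nuclear receptor of lipid storage, was split like ACSL5, at 9.37, 9.22 and 10.14 against 9.77 and 9.87. In the list of citrate and NADPH supply, the short-chain acyl-CoA synthetase ACSS3 read 6.66, 6.72 and 7.62 against 6.45 and 6.74. In glycerolipid synthesis, CDS1, which makes CDP-diacylglycerol, read 7.69, 7.97 and 8.72 against 7.99 and 7.43. Both were high in shRNA 3 by 1.02 and 1.01. By list, shRNA 3 was highest for 6 of the 13 regulators (46.2%) and 5 of 8 citrate and NADPH genes (62.5%). It was highest for 2 of 4 partners of the elongases and 1 of 11 further glycerolipid enzymes. Among 12 fatty acid uptake and 14 further droplet and lipase genes, 0 and 1 were highest in shRNA 3, against 27.1% of all genes. The medians of these 2 lists there were -0.09 and -0.13, against -0.02 over all genes.

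**Figure D4:**
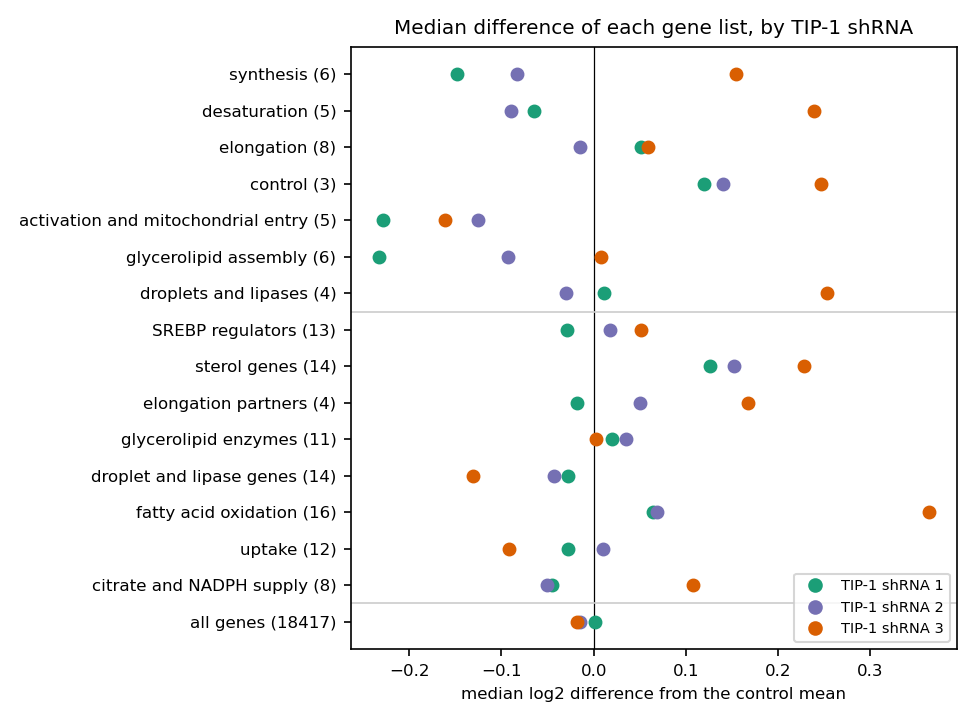
Median log2 difference from the control mean (horizontal axis) of each gene list, 1 dot per TIP-1 shRNA, with the number of genes in brackets. The upper block holds the roles of the 37 genes, the middle block other pathway lists and the last line all genes. In shRNA 3 the medians were 0.36 for fatty acid oxidation, 0.25 for droplets and lipases, 0.25 for control, 0.24 for desaturation, 0.15 for synthesis, 0.06 for elongation, 0.01 for glycerolipid assembly, -0.16 for activation and mitochondrial entry, and -0.02 for all genes.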

How the data were processed

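RNA from 5 D54 samples was hybridised to Affymetrix whole-transcript arrays, 1 array per sample. Per the series' design text, the authors used Affymetrix's Exon Array Computational Tool, for which no version, normalization or genome build was stated. The deposited values are log2 signals per transcript cluster and were used as deposited. Array medians lay between 7.88 and 7.98, and some counts moved when each array was centred on its median. The design text names exon arrays, but row identifiers matched the gene-level annotation, so no exon was compared.

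All 33297 rows were fitted with limma 3.58.1 in R 4.3.3 (lmFit, eBayes, two-sided, 95% intervals, Benjamini-Hochberg adjustment over all rows, threshold 0.05). The main fit set 3 TIP-1 shRNA arrays against 2 controls. A second fit gave each shRNA its own group, so its spread came from the controls. Both were run on simulated data with planted effects, where only the mean estimated differences were checked and not the calls. The p-values of the main fit measure the spread between clones and shRNAs. Those of the second measure only that between the 2 control clones, moderated over all rows by eBayes. The small number of arrays limits precision. Single-array counts used 0.5 log2 units from the control mean, outside both controls.

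The members, lists and tests were chosen with earlier results of these data known. Array values were printed for PNPLA3, the SCD and FADS genes, SREBF1, FASN, INSIG2, members with an unadjusted p under 0.05, and those with the largest differences overall (6) or in each shRNA (3). Other pathway genes were named for an unadjusted p under 0.05 or as 1 of the 3 widest in their list, or after their values were seen. Of the listed genes, those with no single-symbol row were not analysed here. Alternatives were quantile normalization, median centring, brighter rows only, a trended robust fit, array weights, a replicate block, the mean of a gene's rows and leaving out each array.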

Additional observations from a re-analysis of the deposited data

How the results depend on the processing

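No member passed the threshold under any alternative run, in the fit of both groups or in the fits of single shRNAs and of pairs of shRNAs, and no row passed in the single-shRNA fits. Rows past the threshold numbered 1 as deposited, 2 with array weights, 15 with the replicate block and 0 to 6 on dropping single arrays (6 without shRNA 3, 2 without shRNA 1, and 0 for each of the rest). Deviations of same-numbered arrays from their group means correlated at 0.049 (number 1) and -0.053 (number 2). The replicate block was therefore not read as a pairing, and shRNA 3, with no control of its number, does not enter its difference. Members above both controls numbered 4, and 5 to 10 with 1 array left out. Those below both numbered 5, but 2 with median centring, 3 among bright rows and 5 to 17 with 1 array left out, where fewer arrays make separation easier. Members at least 0.5 log2 units from the control mean in shRNAs 1, 2 and 3 numbered 1, 2 and 3 as deposited, and 0, 1 and 5 with median centring. Centring raises shRNA 3 most, since the medians of shRNAs 1, 2 and 3 differed from the mean control median by -0.024, -0.069 and -0.090. Among bright rows, where PNPLA3 and ELOVL7 were not tested, the number in shRNA 3 was 1. Without a control the ranges were 1 to 2, 1 to 2 and 4 to 4. SREBP1-type genes highest in shRNA 3 numbered 7 to 12, and split members 7 to 12, in alternatives chosen after seeing the data. Mean differences that changed sign included those of ELOVL7 and PNPLA3, the largest of the 37 as deposited (0.45 and 0.44): with array weights SCD5 (-0.024) and FADS2 (-0.083), and with the replicate block SCD5 (-0.067), FADS2 (-0.15), ELOVL7 (-0.030) and PNPLA3 (-0.14). With 1 array left out the ranges were -0.067 to 0.22 for SCD5, -0.15 to 0.15 for FADS2, -0.030 to 0.77 for ELOVL7, -0.14 to 0.73 for PNPLA3, -0.14 to 0.39 for SCD and -0.54 to 0.080 for ACSL5. Of 239 values of named genes under the alternatives, 225 kept their direction and 14 changed sign. Where an adjusted p was given, none changed its side of the threshold. The tally is no measure of stability, since part of it was fixed in advance. The trended robust fit, the brighter rows and the mean of a gene's rows left each named gene's difference unchanged. Single-shRNA values without a control had no adjusted p. Without a control no spread is left in the single-shRNA fits, so only values were recomputed there. Signal over background is unknown, so small changes of dim rows could not be judged.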
